A study of Mus musculus with 3 samples.

Results

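The proteasome genes of mouse T-helper 1 cells were described in 3 RNA-seq libraries. The members were the protein-coding genes whose symbol starts with Psma, Psmb, Psmc, Psmd, Psme, Psmf or Psmg followed by a digit, without the inducible subunits Psmb8, Psmb9 and Psmb10, and 47 of 50600 genes in the tables met this rule. They comprised 8 core alpha, 8 core beta, 6 ATPase and 11 lid and base non-ATPase subunits, 5 activators, 1 inhibitor and 7 assembly chaperones. The remaining member, Psmc3ip, is a cofactor of meiotic recombination that carries the name of the ATPase it binds and is no proteasome subunit. The libraries formed 1 group of 3 biological replicates of T-helper 1 primary cells of strain C57BL/6NJ, each from its own biosample of a common donor entry. Age and developmental stage are unknown, and no genotype or treatment is stated beyond a differentiation protocol for CD4+ T cells, whose content was not used here. The assay is named total RNA-seq, while the library protocol it cites is named for poly(A) RNA. A time of 16 hr in the headers of the count tables has no explanation in the labels.

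The proteasome degrades proteins that carry ubiquitin chains. Its core particle is a barrel of outer alpha rings, which gate entry, and inner beta rings, whose subunits Psmb5, Psmb6 and Psmb7 hold the peptidase sites. A regulatory particle caps the barrel: its base unfolds substrates with a ring of ATPases, and its lid removes ubiquitin. Interferon gamma is known to induce Psmb8, Psmb9 and Psmb10, which take the place of the constitutive catalytic subunits, and the PA28 activator encoded by Psme1 and Psme2.

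The gene counts summed to 4764598, 2568928 and 2815439 in replicates 1, 2 and 3. Genes whose exons are overlapped by exons of the other strand held 56.1%, 60.3% and 71.6% of these counts, against 41.9%, 37.7% and 26.8% for clear genes, whose exons lie within no gene of the other strand. Levels are those of the strand that was counted. Whether this was the strand of the mRNA was not tested, and the library kit is not given in the sources used here. Of the T cell markers Cd3d, Cd3e, Cd3g, Trac and Cd4, 5 of 5 were detected, with a summed level of 453 to 947 TPM per library. Of 9 markers of other cells 1 was detected, and 7 had 0 counts in every library. The detected one, Csf1r, had 121, 112 and 137 TPM in replicates 1, 2 and 3. It shares 871 exon bases with an opposite gene, and the T cell marker Cd3e shares 135. The remaining marker of other cells, Cd79a, had 27, 0 and 17 counts in replicates 1, 2 and 3. It shares no exon bases with a gene of the other strand. The sum over the 9 markers was 112 to 145 TPM. Of the genes that define the T-helper 1 type, Tbx21 had 2, 10 and 2 counts in replicates 1, 2 and 3 and Ifng 1, 0 and 0. Neither was detected in every library, so the counted strand does not show whether the subset label holds. TPM is the level corrected for gene length and library depth, computed from counts and the deposited length, and detected means at least 1 TPM in every library.

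On the counted strand, most proteasome genes lay well above the typical gene. In all, 44 of 47 members were detected, beside 39.8% of the 21764 protein-coding genes under the same rule. The members had a median of 78.3 TPM, against 0.378 TPM over all protein-coding genes and 14.1 TPM over the 8668 detected ones. The standard 26S subunits, which are the alpha, beta, ATPase, lid and base genes without the tissue-restricted Psma8 and Psmb11, were detected in 31 of 31 cases. Their means lay between percentile 88.5 and percentile 99.1 of protein-coding genes. All members together held 0.604%, 0.497% and 0.305% of TPM in replicates 1, 2 and 3. Replicate 1 held the largest share and replicate 3 the smallest.

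**Figure D1:**
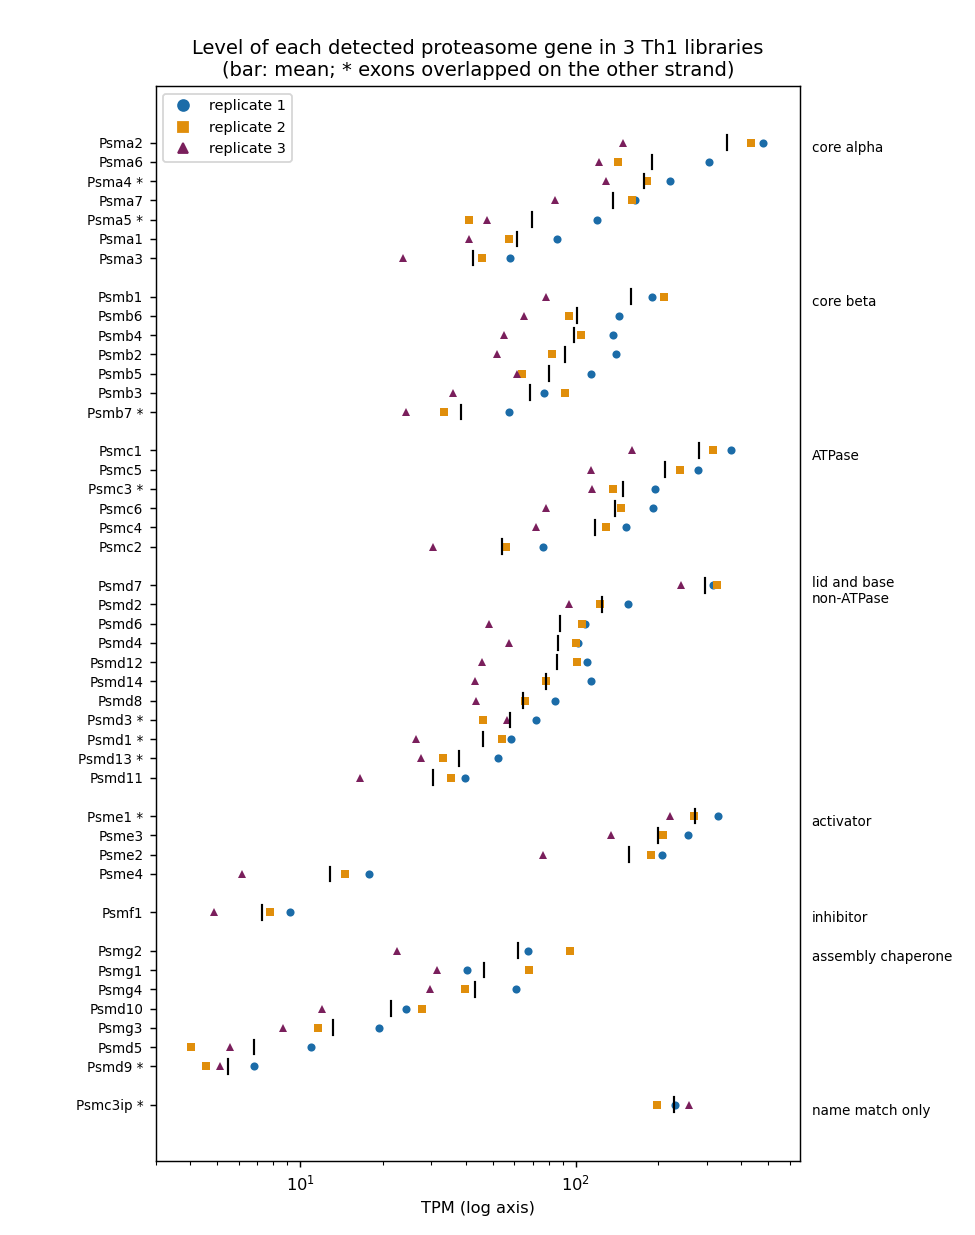
TPM on a log axis for the 44 detected members, grouped by role, with a point for each of 3 replicates and a bar at the mean. Psma2 leads the list at 354 TPM, Psmd9 is the lowest at 5.49 TPM, and the triangles of replicate 3 lie at the left end of most rows.

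Among the alpha ring genes, Psma2 was the highest and Psma3 the lowest of the 7 detected. Psma2, on chromosome 13 from 14613242 to 14625671 (mm10, plus strand), had 1022, 522 and 223 counts in replicates 1, 2 and 3, or 480, 433 and 149 TPM, a mean of 354 ± 180 (SD, n = 3). Psma3 had 507, 227 and 146 counts, or 57.7, 45.7 and 23.6 TPM (42.3 ± 17.3; SD, n = 3). The ranges of both genes did not overlap. The other detected alpha genes, Psma6, Psma4, Psma7, Psma5 and Psma1, had means of 61.4 to 190 TPM. Psma5 stood out for its replicates, with 357, 69 and 100 counts, or 120, 40.9 and 47.6 TPM, so that replicate 1 was far above the other two. Psma8, an alpha subunit of the testis and the paralog of Psma7, had 0, 4 and 0 counts. A count of 0 allows up to 0.786 TPM in replicate 1 and 1.11 TPM in replicate 3 at 3 counts, by counting error alone.

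Among the beta ring genes the detected levels were closer together. Psmb1, a structural subunit, was the highest with 190, 210 and 78.3 TPM in replicates 1, 2 and 3 (159 ± 70.8; SD, n = 3), and Psmb7 the lowest. This order depended on the gene length used. With the length of the principal transcript in place of all annotated exons, Psmb6 was the highest at 190 TPM. Psmb5 was then the lowest at 64.1 TPM, below Psmb7 at 90.7 TPM. The catalytic genes were Psmb6, the caspase-like subunit, with 143, 95.1 and 65.2 TPM (101 ± 39.4), Psmb5, the chymotrypsin-like subunit, with 114, 63.9 and 61.4 TPM (79.8 ± 29.7), and Psmb7, the trypsin-like subunit, with 57.6, 33.2 and 24.3 TPM (38.4 ± 17.2; SD, n = 3 for each). In TPM each of these catalytic genes was highest in replicate 1 and lowest in replicate 3, as were 3893 of 8668 detected protein-coding genes. After the TMM scaling described further on, Psmb5 and Psmb7 were lowest in replicate 2. Psmb4, Psmb2 and Psmb3 had means of 68.1 to 99.0 TPM. Psmb11, the catalytic subunit of thymic epithelium, had 3, 0 and 1 counts, which lies at or under the floor of 3 counts in every library. The log2 ratio of the median alpha to the median beta level was 0.18, 0.21 and 0.30 in replicates 1, 2 and 3, a mean of 0.23 ± 0.06 (SD, n = 3). It was 0.51 without the undetected Psma8 and Psmb11 and 0.062 over members without opposite-strand exons. Within the alpha ring the highest mean was 8.36 times the lowest among the detected genes.

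Promoters were searched because most members differed between libraries in the same direction, as the values further on show. This direction was not particular to the members, since 72.9% of detected protein-coding genes were also lowest in replicate 3 in TPM. NFE2L1, a transcription factor known to raise proteasome genes when the proteasome is impaired, acts through the antioxidant response element, searched here as TGACNNNGC on both strands from 250 bases before to 50 bases after each RefSeq gene start (GRCm38.p6). A promoter was matched for 39 of 47 members, and 6 of these held the element, beside 13.1% of 20095 promoters of protein-coding genes in the same table. The CCAAT box, searched as CCAAT, was held by 14 of 39 members, beside 37.8%. The members are counted as genes, 39 with 42 promoters, and the background as promoters, 20095 of 16469 genes, so the units differ. Both counts are near the background share. The 3 members with a whole antioxidant response element within the last 60 bases before the start are shown, with the element in capitals, since they include the catalytic genes Psmb5 and Psmb6; the third, Psmd9, is an assembly chaperone. Psmb5 is at chr14:54617996-54618055 on the minus strand, Psmb6 at chr11:70525297-70525356 on the plus strand and Psmd9 at chr5:123228130-123228189 on the plus strand, each written 5′ to 3′ and ending at the base before the RefSeq start. The gene model counted for Psmd9 starts further upstream, at 123169413.
Psmb5: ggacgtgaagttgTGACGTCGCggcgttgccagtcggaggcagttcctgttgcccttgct
Psmb6: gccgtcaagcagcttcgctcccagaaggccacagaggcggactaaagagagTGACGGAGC
Psmd9: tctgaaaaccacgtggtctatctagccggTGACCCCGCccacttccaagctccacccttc
The element begins 47, 9 and 31 bases before the start in Psmb5, Psmb6 and Psmd9.

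The constitutive catalytic genes were set against the inducible genes that replace them. Psmb8, which replaces Psmb5, had 70.5, 36.1 and 32.4 TPM in replicates 1, 2 and 3. Psmb9, which replaces Psmb6, had 28.1, 26.6 and 36.1 TPM. Psmb10, which replaces Psmb7, had 21.6, 19.3 and 12.9 TPM. On the log2(TPM + 1) scale the ratio of Psmb5 to Psmb8 was 0.69, 0.81 and 0.90, a mean of 0.80 ± 0.11 (SD, n = 3). The ratio of Psmb6 to Psmb9 was 2.31, 1.80 and 0.84 (1.65 ± 0.75), and that of Psmb7 to Psmb10 was 1.37, 0.75 and 0.86 (1.00 ± 0.33). Each ratio was above 0 in 3 of 3 libraries. The exact two-sided sign-flip permutation test gave p = 0.25 for each of the 3 pairs, the smallest that n = 3 allows, and 0.25 after Benjamini-Hochberg adjustment. The ratio of Psmb5 to Psmb8 depended on the gene length used. With the length of the principal transcript in place of all annotated exons it was -0.05, 0.07 and 0.17, so the levels of Psmb5 and Psmb8 did not differ beyond their spread on that scale. The other ratios became 1.46 ± 0.75 for Psmb6 to Psmb9 and 2.16 ± 0.34 for Psmb7 to Psmb10 (SD, n = 3). Psmb9 overlaps 212 exon bases of Tap1 on the other strand and Psmb8 overlaps 186 exon bases of Gm20496, while Psmb10 lies within an opposite gene without shared exon bases; the part of these overlaps in the ratios was not tested.

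The ATPase genes formed the highest of the subunit groups, with a median of 144 TPM, against 103 for alpha, 85.6 for beta and 78.3 for lid and base non-ATPase genes. The alpha median was 137 TPM without the undetected Psma8, and with the length of the principal transcript it was 180 TPM on that basis, above the 160 TPM of the ATPases. Psmc1, on chromosome 12 from 100110186 to 100123364 (plus strand), had 368, 316 and 160 TPM in replicates 1, 2 and 3 (281 ± 108; SD, n = 3). Psmc2 had 76.3, 55.9 and 30.3 TPM (54.2 ± 23.1) and was the lowest of the 6. Every library of Psmc1 lay above every library of Psmc2. Psmc3 had 195, 136 and 115 TPM, and Psmc5, Psmc6 and Psmc4 had means of 118 to 211 TPM. For 6 of 6 ATPase genes replicate 3 was the lowest library, as it was for 72.9% of detected protein-coding genes.

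Of the lid and base genes, Psmd7, the lid partner of the deubiquitinase Psmd14, was the highest. It lies on chromosome 8 from 107580381 to 107588464 (minus strand) and had 315, 327 and 241 TPM in replicates 1, 2 and 3 (294 ± 46.6; SD, n = 3). Psmd11, a lid subunit that contacts the core, was the lowest of the group with 39.6, 35.2 and 16.6 TPM (30.5 ± 12.2). These ranges were far apart. Psmd14 itself had 113, 78.1 and 43.3 TPM (78.3 ± 35.1). The base scaffold Psmd2 had 124.5 ± 30.3 TPM and its counterpart Psmd1 58.4, 54.0 and 26.3 TPM in replicates 1, 2 and 3 (46.2 ± 17.4), and Psmd4, a ubiquitin receptor, had 86.6 ± 25.5 TPM (SD, n = 3 each). Psmd13 had 52.4, 33.0 and 27.6 TPM, and the other lid genes, Psmd6, Psmd12, Psmd8 and Psmd3, had means of 58.0 to 87.6 TPM. In log2(TPM + 1) Psmd7 had the smallest spread among the standard subunits, an SD of 0.24. Set against the median subunit of its library, its SD was 0.35, above the median SD of 0.18 over the standard subunits.

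The activators held both high and low genes. Psme1, which encodes PA28 alpha and lies on chromosome 14 from 55578123 to 55581529 (plus strand), had 328, 269 and 220 TPM in replicates 1, 2 and 3 (272 ± 54.1; SD, n = 3). Its partner Psme2, PA28 beta, had 205, 188 and 75.9 TPM (157 ± 70.3), below Psme1 in each library. Psme3, the nuclear PA28 gamma, had 255, 207 and 135 TPM (199 ± 60.6). Psme4, which encodes PA200, a nuclear activator known from the testis, had 17.7, 14.6 and 6.15 TPM (12.8 ± 5.99), below each of these in every library. Psme2b, a copy of Psme2, had 2, 0 and 0 counts and so lay under the floor of 3 counts.

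The inhibitor and the median assembly chaperone lay below every standard subunit. Psmf1, which encodes the proteasome-binding protein PI31, had 9.16, 7.79 and 4.88 TPM in replicates 1, 2 and 3 (7.28 ± 2.18; SD, n = 3). The 7 chaperones were all detected, with a median of 21.3 TPM. Psmg2, which works in a pair with Psmg1 on the alpha ring, was the highest with 67.0, 95.5 and 22.6 TPM (61.7 ± 36.8). Psmd9, a chaperone of the base, was the lowest with 6.79, 4.54 and 5.12 TPM (5.49 ± 1.17). With the length of the principal transcript Psmd9 had a mean of 12.3 TPM, and Psmd5 was the lowest chaperone at 9.03 TPM. Psmg2 had the widest spread of the detected members, an SD of 1.06 in log2(TPM + 1), and was the only detected member above 1. Psmg1, Psmg4, Psmd10, Psmg3 and Psmd5 had means of 6.83 to 46.4 TPM.

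The subunits kept much the same order in each library. Across the 31 standard subunits Spearman's rho of TPM was 0.915 between replicates 1 and 2, 0.946 between replicates 1 and 3 and 0.892 between replicates 2 and 3; genes are not independent replicates and share their length correction, so these values are descriptions. Each subunit was also set against the median subunit of its library. The mean of this relative level was within 1 on the log2 scale for 23 of 31 subunits. It was 1.83 ± 0.39 for Psma2, 1.72 ± 0.35 for Psmd7 and 1.58 ± 0.08 for Psmc1 at the top, and -1.25 ± 0.29 for Psmd13, -1.26 ± 0.27 for Psmb7 and -1.59 ± 0.11 for Psmd11 at the bottom (SD, n = 3 each). The median SD of the relative level between libraries was 0.18, against an SD of 0.90 between the means of the subunits. Psma5 had the largest SD between libraries, 0.68.

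Part of the distance between subunits depended on which length was used. The deposited length counts every annotated exon base of a gene, and over the members its median was 1.5 times the length of the principal transcript, up to 3.36 times for Psma7. With the principal length, chosen after the data were seen, Psma7 became the highest standard subunit with 369 TPM, against 137 TPM with all exons. Psmb7 stood at 90.7 TPM with the principal length and 38.4 TPM with all exons, and Psmc2 at 122 and 54.2 TPM. The ratio of the highest to the lowest standard subunit was 7.94 with the principal length and 11.6 with all exons. Among the ATPases it was 2.03 with the principal length and 5.20 with all exons, and among the detected beta genes 2.97 with the principal length and 4.15 with all exons. The lowest genes of some groups changed as well. With the principal length Psmc6 was the lowest ATPase gene at 111 TPM and Psmd13 the lowest lid and base gene at 51.3 TPM. Psmd11 stood at 54.7 TPM on that scale, and Psma3 was the lowest standard subunit at 46.4 TPM. For 6 members the principal transcript of the later annotation was longer than the exons counted, and the shorter of both lengths was used.

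**Figure D2:**
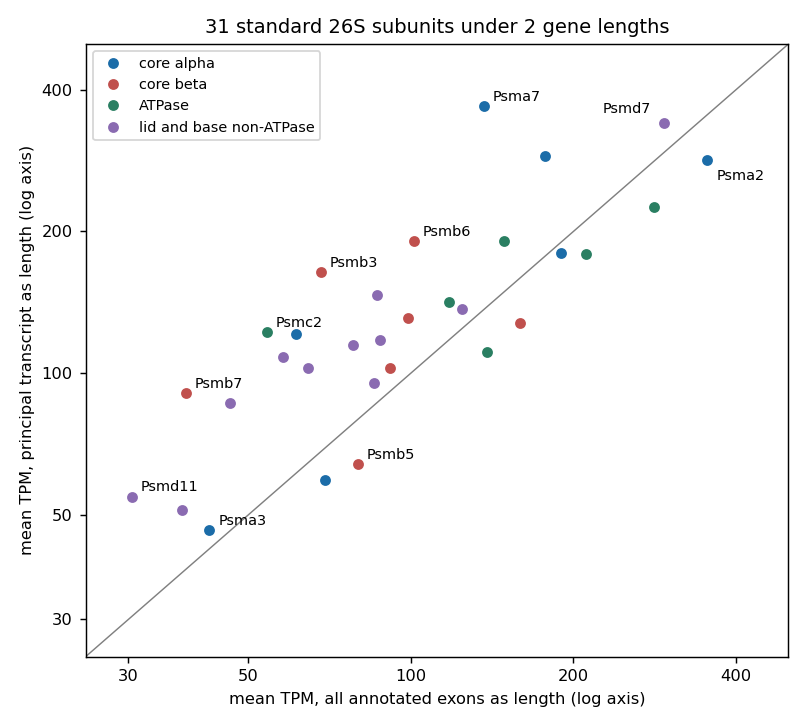
Mean TPM of the 31 standard 26S subunits with all annotated exons as the length (x axis, log) and with the principal transcript as the length (y axis, log), coloured by group; the line marks equal values. Psma7 moves to 369 TPM on the y axis from 137 TPM on the x axis, while Psmb5 and Psma3 stay near the line.

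The libraries differed in the same direction for most members. Of the 44 detected members 39 were lowest in replicate 3, beside 72.9% of detected protein-coding genes, and 37 were highest in replicate 1, beside 57.7%. The median deviation from a gene's own mean in log2(TPM + 1) was 0.46, 0.13 and -0.55 in replicates 1, 2 and 3 for members, against 0.31, 0.13 and -0.43 for detected protein-coding genes. All 32 detected clear members were lowest in replicate 3, beside 81.9% of detected clear protein-coding genes. Of the 12 detected members that have an opposite gene, 7 were lowest in replicate 3, beside 58.6% of detected protein-coding genes with an opposite gene. The other 5, Psma5, Psmd3, Psmd5, Psmd9 and Psmc3ip, were lowest in replicate 2. Psmc3ip was the exception at the top as well, with 230, 197 and 258 TPM in replicates 1, 2 and 3 (229 ± 30.3; SD, n = 3), the only detected member highest in replicate 3.

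Other protein-coding genes shifted in the same direction, and scaling made the shift smaller. After TMM scaling, which sets the libraries to a common level over most genes, the median deviation of the members was 0.21, 0.03 and -0.18 in replicates 1, 2 and 3, against 0.08, 0.02 and -0.10 for detected protein-coding genes. On that scale 26 of 44 members were lowest in replicate 3, beside 47.1% of detected protein-coding genes. Of the clear members 24 of 32 were lowest in replicate 3, beside 55.9% of detected clear protein-coding genes. Of the members with an opposite gene 10 of 12 were lowest in replicate 2, beside 33.8% of detected protein-coding genes with an opposite gene. The share of counts on genes with opposite-strand exons, 56.1%, 60.3% and 71.6% in replicates 1, 2 and 3, also differed between the libraries, and its part in this pattern was not tested. With 1 library per replicate, a library effect and a difference between the cell samples cannot be told apart, and fewer cells of a type cannot be told from less RNA per cell.

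**Figure D3:**
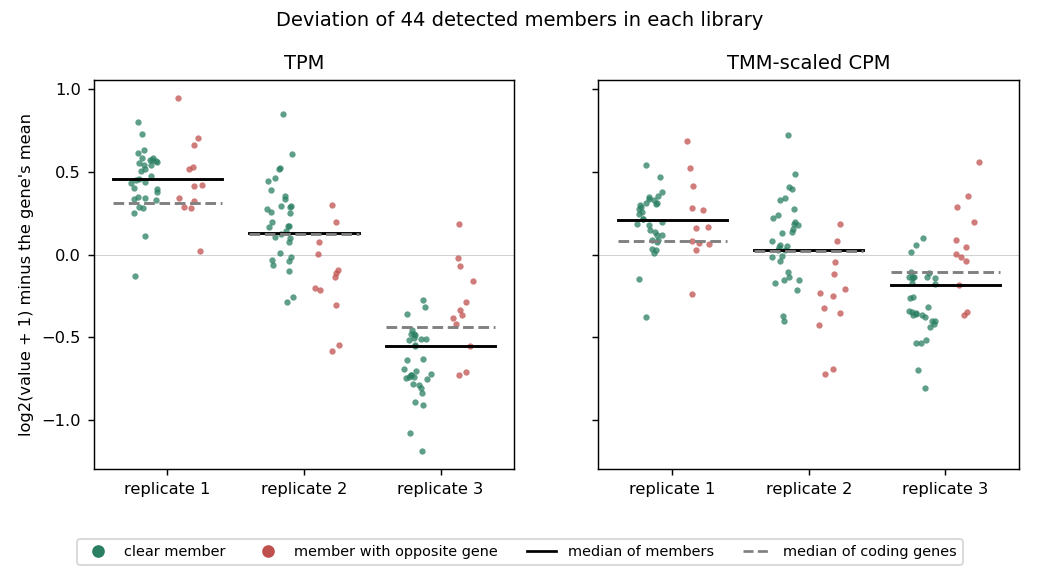
Deviation of log2(value + 1) from the gene's own mean in each of 3 libraries, for 44 detected members in TPM (left) and TMM-scaled CPM (right); green points are clear members, red points have an opposite gene, and lines mark the medians of members and of detected protein-coding genes. In TPM the member median is 0.46, 0.13 and -0.55 in replicates 1, 2 and 3, and after TMM scaling 0.21, 0.03 and -0.18.

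How the members' spread between replicates compared with that of other genes depended on the scaling and on the libraries used. The median SD of log2(TPM + 1) was 0.61 over detected members and 0.50 over detected protein-coding genes. It was 0.33 over members and 0.36 over protein-coding genes in TMM-scaled CPM, 0.30 and 0.34 with DESeq2 size factors, and 0.27 and 0.34 in TPM scaled over clear genes. The edgeR tagwise biological coefficient of variation, fitted on all genes that passed the count filter, had a median of 0.290 over the 44 members that passed, within 0.281 to 0.350, against 0.305 over 8128 protein-coding genes. The filter left out Psma8, Psmb11 and Psme2b. These estimates are drawn towards the trend of all genes. Over clear genes alone the medians were 0.177 for 32 members and 0.257 for 5007 protein-coding genes, and without replicate 3 they were 0.195 and 0.281. Without replicate 2 the members stood above, at 0.312 against 0.302, and without replicate 1 the medians were 0.333 for members and 0.336 for protein-coding genes.

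Exons of 10 members overlapped exons of a gene on the other strand, beside 22.1% of protein-coding genes. Psma3 and Psmd5 had exons within an opposite gene but shared no exon bases with it, which left 35 clear members. In 3 of the 10 pairs the opposite gene had more counts per kilobase than the member in every library, beside 41.7% of overlapped protein-coding genes. Psmb7, on chromosome 2 from 38588036 to 38644087 (minus strand), shares 405 bases with Nek6, a mitotic kinase gene, and had 130, 42.4 and 38.6 counts per kilobase in replicates 1, 2 and 3, against 664, 410 and 521 for Nek6. Psma4 shares 114 bases with AY074887 and had 495, 232 and 205 counts per kilobase, against 2038, 1233 and 1536 for AY074887. Psmd3 shares 17 bases with Gm12356 and had 161, 58.8 and 89.4 counts per kilobase, against 2252, 1323 and 2244 for Gm12356.

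In the other 7 pairs the member had more counts per kilobase in every library. Psmc3ip shares 385 bases, 21.2% of its exons, with Mlx, a transcription factor gene, and had 519, 252 and 410 counts per kilobase in replicates 1, 2 and 3, against 156, 73.0 and 64.0 for Mlx. Psmd9 has the longest overlap, 1849 bases with the lincRNA Gm26745, which had 7, 0 and 6 counts against 111, 42 and 59 for Psmd9. Psmd13 shares 342 bases with Sirt3, Psmd1 252 with Htr2b, Psmc3 215 with Slc39a13, Psma5 60 with 1700010K24Rik and Psme1 14 with Emc9. Of these partners Emc9 had the most counts, 442, 272 and 402 in replicates 1, 2 and 3, against 1633, 758 and 772 for Psme1. The levels of the 10 overlapped members are uncertain to the extent that reads of the opposite gene entered them, which was not tested.

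**Figure D4:**
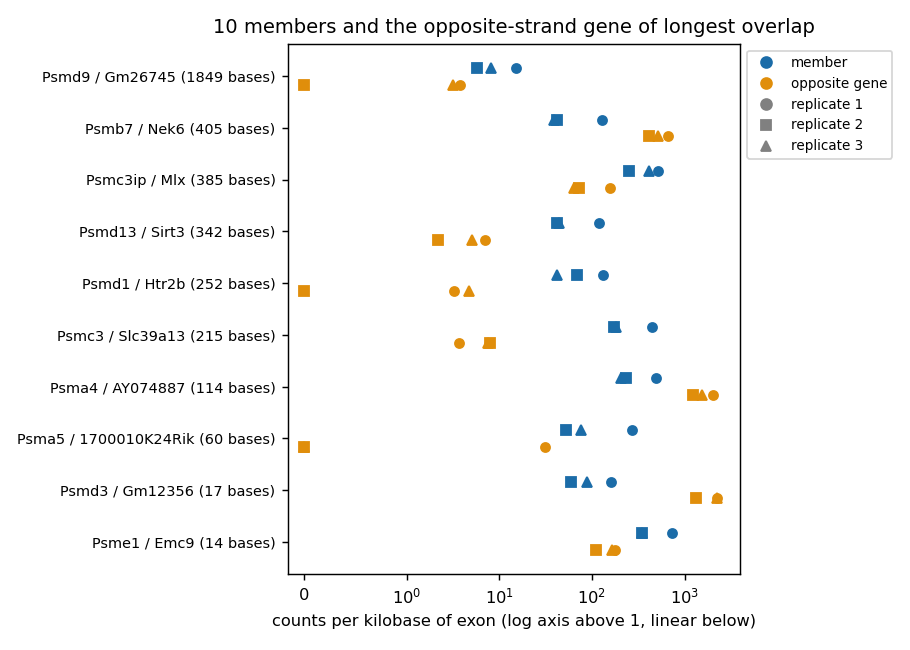
Counts per kilobase of exon for 10 members (blue) and the opposite-strand gene with the longest exon overlap (orange) in 3 replicates; the axis is logarithmic above 1 and linear below, and the bases shared are given beside each pair. Nek6, AY074887 and Gm12356 lie above Psmb7, Psma4 and Psmd3 in every library, and the member lies above in the other 7 pairs.

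Near-identical copies were found for some members, Psma4 and Psma5 of the overlapped ones among them. For 9 members over 50% of the principal transcript matched a gene at another place in the genome at 95% identity or more: Psmd2 (98.2%), Psme2b (94.9%), Psmb5 (88.4%), Psme2 (82.5%), Psmc1 (81.96%), Psmb3 (80.7%), Psma5 (76.5%), Psma4 (66.9%) and Psmd11 (52.7%). The counting command in the headers holds no option for reads that map to several places, so the levels of these genes are uncertain. Psmb5 also shares 109 exon bases with Mir686 on its own strand, 12.5% of its exons, and Psmg3 shares 280 with Gm26938, or 9.68%.

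Most other genes of the pathway were also detected on the counted strand. Of 33 further genes listed for ubiquitin activation, ubiquitin itself, delivery to the proteasome, assembly and control, 32 were matched and 31 detected, beside 39.8% of protein-coding genes. The 32 genes had a median of 24.6 TPM, against 0.378 TPM over all protein-coding genes and 14.1 TPM over the detected ones. Of the 32 genes 24 were clear, and 8 had exons overlapped by exons of the other strand. Nfe2l3, a relative of the proteasome regulator Nfe2l1, was the lowest with 6, 8 and 7 counts, or 0.895, 2.11 and 1.48 TPM, and was the gene not detected. Nfe2l1 had 29.9, 34.7 and 15.3 TPM (26.6 ± 10.1) and the core assembly factor Pomp averaged 33.9 ± 15.2 TPM (SD, n = 3 each). Both were lowest in replicate 3, beside 72.9% of detected protein-coding genes and 81.9% of the clear ones.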

How the data were processed

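Total RNA-seq counts of 3 T-helper 1 libraries were used, numbered as in the labels' descriptions. Counts as deposited are whole numbers for each gene. Per the file headers, the authors ran featureCounts v1.4.6-p4 over exons of GENCODE vM13 (mm10), with read pairs and strand setting 1; the aligner is not given in the sources used here. TPM and CPM were computed from the counts and the deposited gene length. The members, gene lists and motifs were chosen with earlier results of these data known, and the principal-transcript length was added after the data were seen. Of 50600 identifiers 50376 were named from GENCODE vM21. Log values use a pseudocount of 1. Named are all members, with values per library (TPM, counts or counts per kilobase) for the highest and lowest of each role, the catalytic genes, the overlapped and the undetected members. There is 1 group, so no conditions were compared. Whether the biological replicates came from separate cultures is not stated, so the spread may be partly technical. Floors of 3 counts cover counting error only. Dispersions came from edgeR 4.0.16 (TMM, filterByExpr, intercept alone) with DESeq2 1.42.0 as an alternative, both tested on simulated counts. Copies were sought with blastn 2.17.0 (95% identity, 100 bases) among GENCODE vM21 transcripts. R 4.3.3 and Python 3.11.15 were used, the second with matplotlib 3.10.9, SciPy 1.17.1, pandas 2.3.3 and numpy 2.4.6. The values of 1 further pathway gene are not reported here.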

Additional observations from a re-analysis of the deposited data

How the results depend on the processing

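The number of detected members was 41 to 44 under 7 alternatives, and the overlap counts stayed within 1.5 times their values. The log2 ratio of Psmb5 to Psmb8 turned to -0.82 in CPM, which leaves out gene length; the other alternatives kept the sign of the mean of the 3 catalytic ratios, none of which can pass a threshold at n = 3. The median member level was 158.5 TPM scaled over protein-coding genes, 293.7 TPM scaled over clear genes and 111 TPM with the principal length, with leave-one-out values of 62.6 to 89.0 TPM. The median SD between libraries, 0.61 in log2(TPM + 1), was 0.33 in TMM-scaled CPM, 0.30 with DESeq2 size factors, and 0.27 scaled over clear genes. Leaving out each replicate in turn gave 0.25 to 0.75 for this SD, lowest without replicate 3. The coefficient of variation was 0.177 over clear genes and 0.190 by DESeq2; leave-one-out values were 0.195, without replicate 3, to 0.333. The log2 ratio of the alpha to the beta median was 0.51 without Psma8 and Psmb11, 0.57 in CPM, 0.062 over members without opposite-strand exons and 0.46 with the principal length, with leave-one-out values of 0.19 to 0.26. The cause of these moves was not tested beyond what each setting states. Detected members had at least 26 counts per library, which limits the precision of the lowest ones. No paired analysis was possible because there was 1 group.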
